A study of Mus musculus with 10 samples.

Results

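The genes described here are 39 genes of homologous recombination, of the Fanconi anemia pathway and of the replication checkpoint. They were chosen by name because the BAP1 protein acts in this process. No measured value was used, but earlier results of these data were known when the genes were chosen. All 39 were among the 55291 genes of the count table, and all 39 passed the filter on low counts that left 17015 genes for testing. They were sorted into 7 roles, which are the BRCA core, the strand exchange genes, end resection and helicases, the Fanconi core complex, the Fanconi ID complex, the checkpoint kinases with their activators, and the structure-specific nucleases.

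Bulk mRNA was sequenced from 10 mouse livers, with 2 livers in each vehicle group and 3 in each CCl4 group. All mice were Cas9 Lox-Stop-Lox females of 16 to 20 weeks that received an AAV8 vector. It carried a guide RNA and a Cre recombinase under the hepatocyte promoter TBG. The design was meant to switch on Cas9 only in hepatocytes that took up the vector, so that other liver cells would keep Bap1. The paper reports partial editing at the Bap1 guide site in liver tissue. The guide was non-targeting (NTC) or directed at Bap1 (sgBap1), and 10 days later each mouse was given carbon tetrachloride in olive oil (CCl4, a toxin that kills the hepatocytes around the central vein) or olive oil alone (Veh) into the peritoneum at 10 µL/g, with harvest at 48 hours. The 4 groups are named NTC-Veh, NTC-CCl4, sgBap1-Veh and sgBap1-CCl4.

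Homologous recombination repairs a broken chromosome by copying the intact sister. The break is first cut back by the MRE11 complex and CtIP, BRCA1 and BARD1 together with PALB2 then bring in BRCA2, and strand exchange with the matching sequence follows. The Fanconi anemia core complex attaches ubiquitin to FANCD2 and FANCI at crosslinked DNA, and the kinases ATM and ATR, with TOPBP1, Claspin, CHK1 and CHK2, halt the cell cycle while repair proceeds. Most of these proteins work in S and G2 phase, and the resting adult liver holds few cycling cells, whereas hepatocytes and other liver cells re-enter the cycle after toxic injury.

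Bap1 checked the labels. It read 34.8 and 34.8 CPM (the counts of a gene in each 1000000 counts of the library, after scaling) in the NTC-Veh livers against 17.5 and 19.5 CPM in the sgBap1-Veh livers, a log2 difference of -0.91 (SE 0.12, adjusted p = 0.0208 by edgeR's quasi-likelihood test). With CCl4 it read 30.1, 31.5 and 29.5 CPM in the NTC livers against 17, 21.8 and 19.1 CPM in the sgBap1 livers, a log2 difference of -0.65 (SE 0.10, adjusted p = 0.0295). Every sgBap1 liver lay below every NTC liver. The adjusted p was 0.0577 to 0.120 with vehicle when any 1 of the 4 vehicle livers was left out, and 0.0545 to 0.147 with CCl4 when any 1 of 6 livers was left out. Libraries held 33000000 to 52200000 estimated counts, at which 3 counts correspond to 0.0511 to 0.112 CPM. One library stood apart: sgBap1-CCl4 replicate 2 held fat cell RNA, with Adipoq at 36.3 CPM and Plin1 at 34.5 CPM where no other liver was above 0.0425 CPM for Adipoq.

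The comparison of NTC-CCl4 with NTC-Veh asked how the genes responded to injury in livers with intact Bap1. Of the 39 genes, 26 were higher with CCl4, 2 were lower and 11 did not pass an adjusted p of 0.05. Over all genes tested 53.9% passed, with 27.4% higher and 26.6% lower. The median log2 fold change was 1.4 for the 39 genes and 0.03 for all genes tested. In sgBap1 livers the same comparison called 28 of the 39 genes higher and 3 lower, against 57.0% of all genes, of which 29.0% were higher and 28.0% lower, and the median log2 fold change was 1.27 for the 39 genes and 0.04 for all genes. The CCl4 and vehicle livers did not overlap for 28 genes upward and 4 downward in NTC livers, against 36.7% and 35.0% of all genes, and for 29 upward and 6 downward in sgBap1 livers, against 37.3% and 34.9%. The heatmap of centred levels shows every gene of the BRCA core and of the Fanconi ID complex higher with CCl4 in both genotypes, and in each of the other roles part of the genes.

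**Figure D1:**
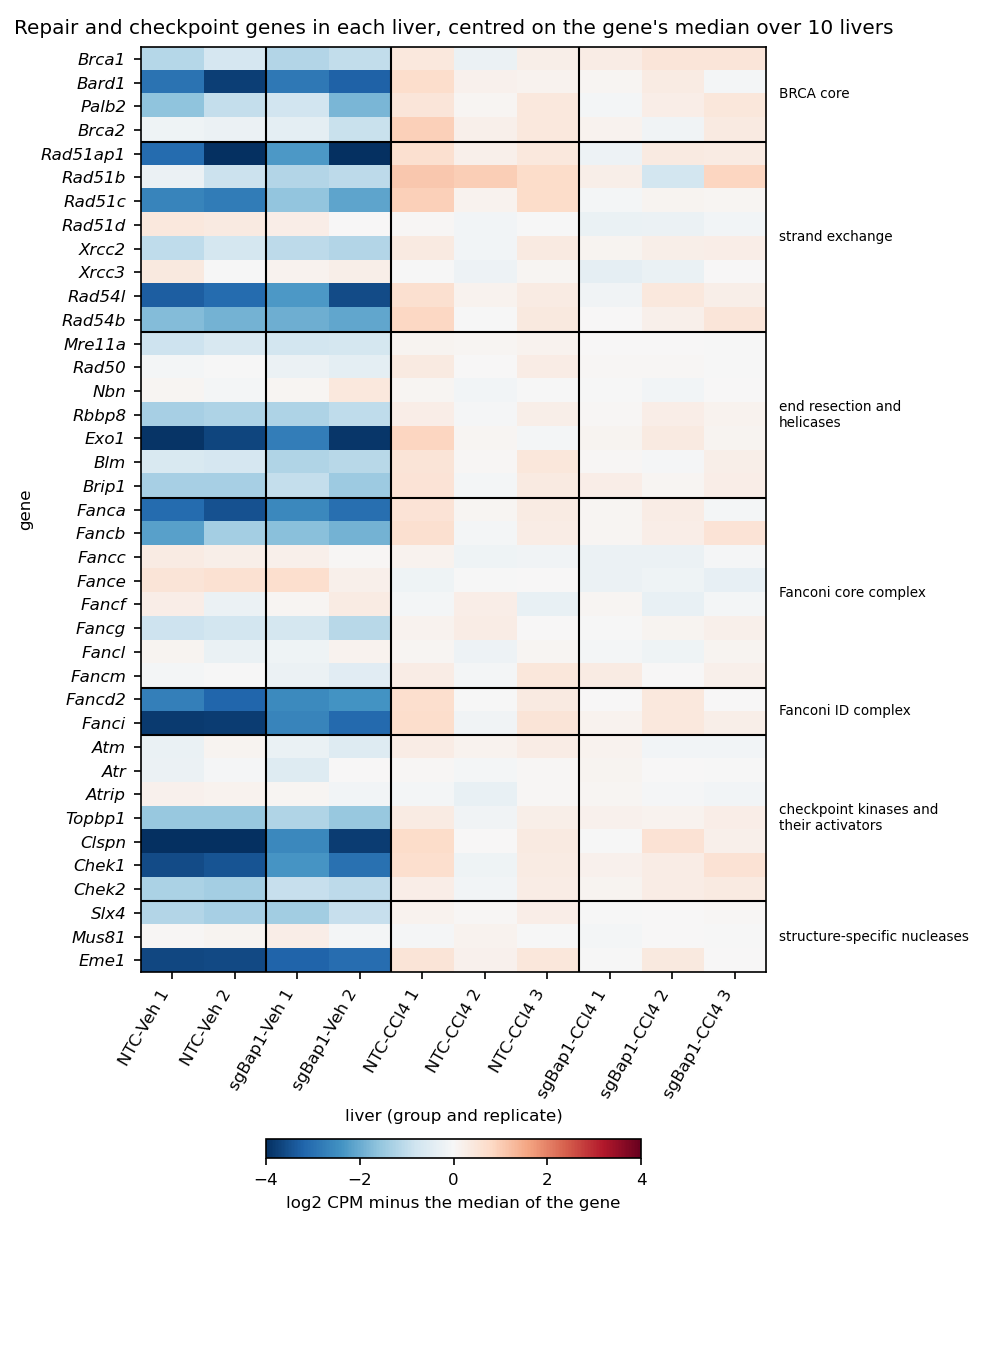
Level of each of the 39 genes (vertical axis, grouped by role) in each of the 10 livers (horizontal axis), as log2 CPM minus the gene's median over the 10 livers, with blue below and red above that median. Clspn, Exo1, Fanci and Rad51ap1 are deep blue in vehicle livers and pale to red in CCl4 livers, whereas Nbn, Mus81 and Atr stay pale throughout.

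The checkpoint arm held some of the largest changes. Clspn, which encodes Claspin, the adaptor through which ATR reaches CHK1 (chr4:126556935-126593903, plus strand, GRCm38), read 0.163 and 0.166 CPM in the NTC-Veh livers and 7.05, 4.28 and 5.46 CPM in the NTC-CCl4 livers. In sgBap1 livers it read 0.673 and 0.262 CPM with vehicle and 4.26, 6.33 and 4.91 CPM with CCl4. The CCl4 livers were all higher in both genotypes, with a log2 change of 5.06 (SE 0.45, adjusted p = 1.02e-05) in NTC and 3.38 (SE 0.38, adjusted p = 3.98e-05) in sgBap1 livers. The vehicle values rest on 6, 6, 25 and 7 reads, so the size of this fold is less certain than its direction.

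Chek1, the kinase that ATR activates (chr9:36708482-36727065, minus strand), read 0.327 and 0.360 CPM in NTC-Veh livers and 7.10, 3.91 and 5.57 CPM in NTC-CCl4 livers. In sgBap1 livers it read 0.834 and 0.524 CPM with vehicle and 5, 5.49 and 6.65 CPM with CCl4. The groups did not overlap, and the log2 fold change was 3.99 (SE 0.36, adjusted p = 1.25e-05) in NTC and 3.03 (SE 0.33, adjusted p = 3.34e-05) in sgBap1 livers. Topbp1, the direct activator of ATR (chr9:103305215-103350428, plus strand), was already well expressed, at 10.9 and 10.8 CPM in NTC-Veh and 13.4 and 10.8 CPM in sgBap1-Veh livers. It reached 38.6, 28.2 and 36.2 CPM in NTC-CCl4 livers and 34.9, 34.1 and 37.5 CPM in sgBap1-CCl4 livers. The Topbp1 rise was smaller in fold but closely repeated, at 1.66 (SE 0.15, adjusted p = 9.52e-06) and 1.55 (SE 0.14, adjusted p = 1.28e-05) on the log2 scale.

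Chek2, the kinase downstream of ATM, also rose in both genotypes, by 1.5 (SE 0.19) and 1.25 (SE 0.18) on the log2 scale. The apical kinases themselves did not pass. Atr was at 16.7 and 19.1 CPM in NTC-Veh and 20.7, 18.9 and 20.6 CPM in NTC-CCl4 livers, with overlapping groups, and Atm and the ATR partner Atrip had log2 fold changes of 0.32 (SE 0.14) and -0.27 (SE 0.12) in NTC livers. The Atrip value is uncertain because 15.1% of its 50-base stretches also occur in other genes, among them Trex1, which overlaps it on the same strand. Thus 4 of the 7 checkpoint genes were higher and 0 lower in each genotype, and the 4 were the same genes.

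**Figure D2:**
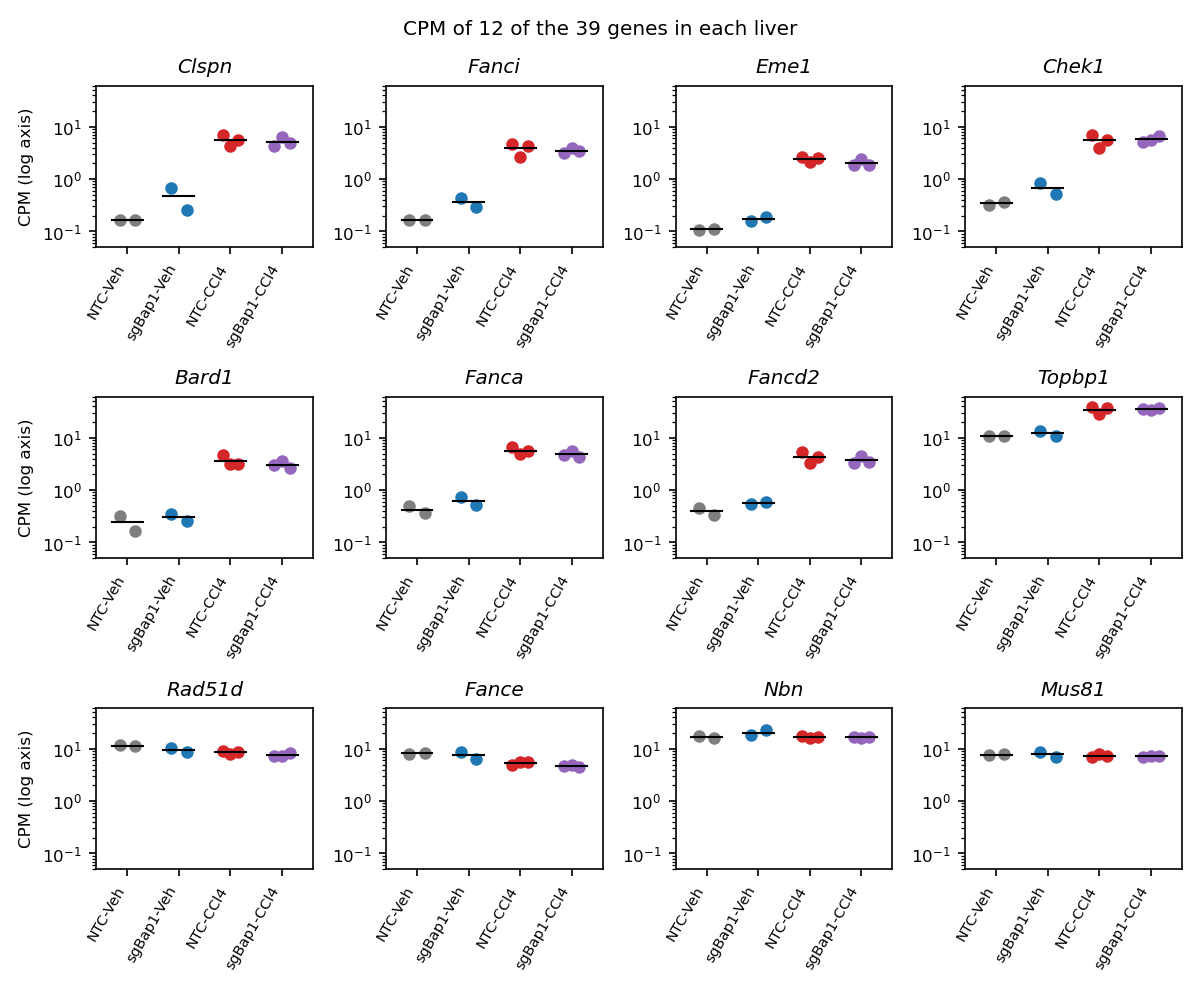
CPM on a log axis for 12 of the 39 genes in each liver, with a point per liver and a line at the group mean, in 4 groups of 2 or 3 livers. The first 8 genes are the 8 with the smallest p in NTC livers and their CCl4 points all lie above the vehicle points. Rad51d and Fance lie lower with CCl4, the sgBap1-Veh points of Nbn lie above its others, and the Mus81 groups overlap.

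In the BRCA core all 4 genes were higher with CCl4 in both genotypes. Bard1, the obligate partner of BRCA1 in its ubiquitin ligase (chr1:71027498-71103146, minus strand), read 0.327 and 0.166 CPM in NTC-Veh livers and 4.67, 3.21 and 3.12 CPM in NTC-CCl4 livers. In sgBap1 livers it read 0.350 and 0.262 CPM with vehicle and 2.96, 3.54 and 2.7 CPM with CCl4. The log2 fold change was 3.88 (SE 0.36, adjusted p = 1.32e-05) in NTC and 3.29 (SE 0.36, adjusted p = 3.25e-05) in sgBap1 livers, with no overlap between groups. Brca1 rose by less than its partner, from 4.19 and 5.82 CPM to 12.5, 7.77 and 10.9 CPM in NTC livers, a log2 change of 1.05 (SE 0.21, adjusted p = 0.0019), and by 1.5 (SE 0.22, adjusted p = 0.000218) in sgBap1 livers.

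Palb2, the bridge between BRCA1 and BRCA2, rose by 1.63 (SE 0.33) and 1.42 (SE 0.33) on the log2 scale. Brca2 showed the smallest rise of the 4, at 0.76 (SE 0.24, adjusted p = 0.0235) in NTC and 0.74 (SE 0.25, adjusted p = 0.0282) in sgBap1 livers. Its call depended on single livers: the adjusted p in NTC livers was 0.0916 without NTC-Veh replicate 1, 0.115 without NTC-Veh replicate 2 and 0.0743 without NTC-CCl4 replicate 1, and in sgBap1 livers it was 0.195 without sgBap1-Veh replicate 2, 0.0565 without sgBap1-CCl4 replicate 1 and 0.0783 without sgBap1-CCl4 replicate 3, and 0.0674 by limma-voom.

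Among the strand exchange genes, 6 of 8 were higher and 1 lower in each genotype. Rad51ap1, which promotes strand invasion, rose by 4.35 (SE 0.50) and 3.13 (SE 0.46) on the log2 scale. Rad54l, the translocase that remodels DNA during strand exchange, rose by 3.71 (SE 0.37) and 3.01 (SE 0.35). Rad51c, which also takes part in strand exchange, read 0.218 and 0.194 CPM in NTC-Veh livers, 0.511 and 0.337 CPM in sgBap1-Veh livers, 3.20, 1.80 and 2.71 CPM in NTC-CCl4 livers and 1.53, 1.73 and 1.70 CPM in sgBap1-CCl4 livers. It rose in both genotypes, by 3.62 (SE 0.38) and 1.92 (SE 0.35).

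Rad51d, which acts in the same complex as Rad51c (chr11:82876434-82890614, minus strand), moved the other way. It read 11.8 and 11.3 CPM in NTC-Veh and 9.04, 8.04 and 8.72 CPM in NTC-CCl4 livers, and 10.5 and 8.75 CPM in sgBap1-Veh and 7.34, 7.41 and 8.14 CPM in sgBap1-CCl4 livers. The fall passed the test in NTC (-0.42, SE 0.12, adjusted p = 0.0112) and in sgBap1 livers (-0.34, SE 0.12, adjusted p = 0.0317). It was small and fragile: scaled by library size alone the log2 fold change was 0.05 and 0.14, and the adjusted p was 0.0684 without NTC-Veh replicate 1, 0.291 without sgBap1-Veh replicate 1, 0.0871 without sgBap1-CCl4 replicate 1 and 0.0736 without sgBap1-CCl4 replicate 2.

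Rad51b, Xrcc2 and Rad54b completed the 6 that rose, with log2 changes of 1.46 (SE 0.40), 1.09 (SE 0.20) and 2.30 (SE 0.30) in NTC livers, and Xrcc3 did not pass. Rad51b was uneven between sgBap1-CCl4 livers, at 7.49, 3.83 and 11.5 CPM against 2.80 and 3.11 CPM with vehicle, and the lowest of the 3 was the library that held fat cell RNA. The sgBap1 rise of 1.37 (SE 0.42, adjusted p = 0.0214) was 1.69 without that library (adjusted p = 0.000502). Its adjusted p rose to 0.108 in NTC livers without NTC-Veh replicate 2, and in sgBap1 livers to 0.126 and 0.0884 without sgBap1-Veh replicate 1 and 2 and to 0.0759 by limma-voom. The Rad54b value is uncertain because 34.5% of its 50-base stretches also occur in Fsbp, a gene that overlaps it on the same strand.

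End resection was split within its first complex. Of the MRE11 complex, Mre11a, the nuclease, rose by 0.84 (SE 0.10) and 0.73 (SE 0.10) on the log2 scale, while its partners moved little. Nbn, which brings ATM to the complex, read 17.8 and 16.2 CPM in NTC-Veh and 17.8, 15.8 and 17 CPM in NTC-CCl4 livers, and 18.2 and 22.6 CPM in sgBap1-Veh and 17, 15.7 and 17 CPM in sgBap1-CCl4 livers. The NTC groups overlapped, and the fall of -0.30 (SE 0.11, adjusted p = 0.0415) in sgBap1 livers rested on the high sgBap1-Veh replicate 2, without which the adjusted p was 0.403. It also lost the call when any 1 of 7 other livers was left out, with adjusted p from 0.0519 to 0.105, and by limma-voom (adjusted p = 0.0569), and was 0.18 in the other direction when scaled by library size alone.

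Rad50, the complex's ATPase, rose by 0.32 (SE 0.11, adjusted p = 0.0349) in sgBap1 livers and had a log2 change of 0.28 (SE 0.11, adjusted p = 0.0612) in NTC livers. The sgBap1 call was lost when any 1 of the 5 sgBap1 livers was left out, with adjusted p from 0.0547 to 0.192, and by limma-voom (adjusted p = 0.0571). Rbbp8, which encodes CtIP, the cofactor that starts resection, read 4.49 and 4.79 CPM in NTC-Veh, 4.82 and 5.61 CPM in sgBap1-Veh, 13.6, 11 and 13.3 CPM in NTC-CCl4 and 11.6, 13.4 and 12.5 CPM in sgBap1-CCl4 livers. It rose with no overlap, by 1.44 (SE 0.14, adjusted p = 1.82e-05) in NTC and 1.27 (SE 0.14, adjusted p = 3.67e-05) in sgBap1 livers.

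Exo1, the exonuclease that extends resection, rose most within the role, by 4.55 (SE 0.50) in NTC and 3.6 (SE 0.47) in sgBap1 livers on the log2 scale. Its vehicle livers held only 4, 5, 11 and 3 reads. The helicase genes Blm and Brip1 were higher in both genotypes, by 0.98 (SE 0.18) and 1.66 (SE 0.22) in NTC livers. In all, 5 of 7 genes of the role were higher in NTC livers, and 6 were higher and 1 lower in sgBap1 livers.

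The Fanconi core complex was the most divided role, with 3 of 8 genes higher and 1 lower in NTC livers and 4 higher and 1 lower in sgBap1 livers. Fanca, which encodes a subunit that FANCG binds (chr8:123268300-123318576, minus strand), had the smallest p of all 39 genes in both genotypes. It read 0.490 and 0.360 CPM in NTC-Veh, 0.726 and 0.524 CPM in sgBap1-Veh, 6.65, 4.79 and 5.62 CPM in NTC-CCl4 and 4.75, 5.60 and 4.29 CPM in sgBap1-CCl4 livers. The groups were far apart, with log2 changes of 3.73 (SE 0.27, adjusted p = 3.85e-06) in NTC and 2.93 (SE 0.26, adjusted p = 1.04e-05) in sgBap1 livers.

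Fancb, which joins the catalytic module of the core complex with the ubiquitin ligase gene Fancl, rose by 2.08 (SE 0.33) and 2.12 (SE 0.34), whereas Fancl had log2 fold changes of 0.05 (SE 0.17) and -0.03 (SE 0.17) and did not pass. Fancg, which binds FANCA, rose by 0.95 (SE 0.17) and 0.98 (SE 0.17). Fancc and Fancf did not pass in either genotype. Fancm, the translocase that anchors the complex to DNA, passed in sgBap1 livers only (0.53, SE 0.19, adjusted p = 0.0323), a call lost without any of 4 sgBap1 livers, with adjusted p from 0.0642 to 0.173, and by limma-voom (adjusted p = 0.0592), and the test of the difference between genotypes did not pass.

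Fance, the subunit that contacts FANCD2 (chr17:28313519-28326572, plus strand), fell. It read 8 and 8.39 CPM in NTC-Veh, 8.77 and 6.32 CPM in sgBap1-Veh, 4.94, 5.48 and 5.57 CPM in NTC-CCl4 and 4.73, 4.95 and 4.40 CPM in sgBap1-CCl4 livers. All CCl4 livers were below all vehicle livers, and the log2 fold change was -0.62 (SE 0.15, adjusted p = 0.0056) in NTC and -0.69 (SE 0.15, adjusted p = 0.00302) in sgBap1 livers. The adjusted p in sgBap1 livers was 0.0581 without sgBap1-Veh replicate 1, and scaled by library size alone neither call held (-0.15 and -0.21).

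Both genes of the Fanconi ID complex, the clamp that the core complex marks with ubiquitin, rose strongly. Fanci (chr7:79391929-79450264, plus strand) read 0.163 and 0.166 CPM in NTC-Veh, 0.430 and 0.299 CPM in sgBap1-Veh, 4.73, 2.63 and 4.21 CPM in NTC-CCl4 and 3.22, 3.90 and 3.40 CPM in sgBap1-CCl4 livers. Its log2 fold change was 4.52 (SE 0.40, adjusted p = 1.06e-05) in NTC and 3.22 (SE 0.36, adjusted p = 3.71e-05) in sgBap1 livers. Fancd2 (chr6:113531682-113597017, plus strand) read 0.463 and 0.332 CPM in NTC-Veh, 0.538 and 0.599 CPM in sgBap1-Veh, 5.31, 3.34 and 4.32 CPM in NTC-CCl4 and 3.35, 4.48 and 3.40 CPM in sgBap1-CCl4 livers. It rose by 3.43 (SE 0.32, adjusted p = 1.35e-05) and 2.73 (SE 0.31, adjusted p = 4.26e-05), and neither gene had overlapping groups.

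Of the structure-specific nucleases, Eme1 and Slx4 rose and Mus81 did not pass. Eme1, the regulatory partner of MUS81 (chr11:94644996-94653964, minus strand), read 0.109 and 0.111 CPM in NTC-Veh, 0.161 and 0.187 CPM in sgBap1-Veh, 2.69, 2.10 and 2.55 CPM in NTC-CCl4 and 1.86, 2.43 and 1.87 CPM in sgBap1-CCl4 livers. Its vehicle livers held 4, 4, 6 and 5 reads and its CCl4 livers 88 to 142, with log2 changes of 4.44 (SE 0.35, adjusted p = 5.42e-06) and 3.55 (SE 0.34, adjusted p = 1.4e-05). Mus81, the catalytic subunit, stayed at 6.88 to 8.74 CPM over all 10 livers, with overlapping groups and log2 fold changes of -0.06 (SE 0.13) and -0.14 (SE 0.13). Slx4, the scaffold of these nucleases, rose by 1.4 (SE 0.15) and 1.17 (SE 0.15).

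**Figure D3:**
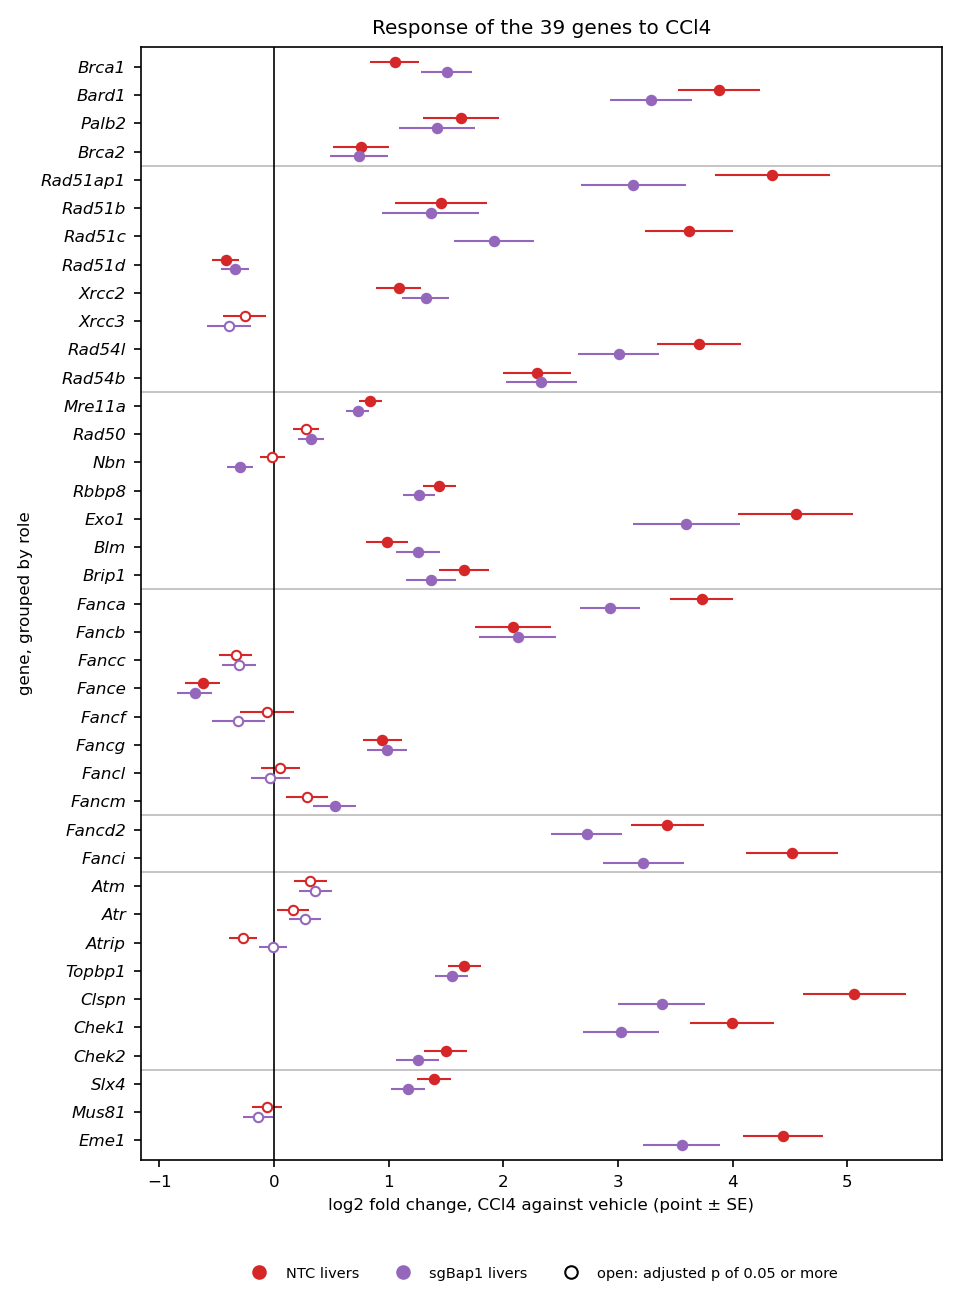
Log2 fold change of CCl4 against vehicle (horizontal axis, point with SE) for the 39 genes (vertical axis, grouped by role), in NTC livers (red) and sgBap1 livers (purple). Filled points passed an adjusted p of 0.05. The 26 genes higher in NTC livers were also higher in sgBap1 livers, and Rad51d and Fance were lower in both.

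In several pairs of direct partners (Bard1 and Brca1, Eme1 and Mus81, Fancb and Fancl, Mre11a and Nbn) the first gene had the larger log2 fold change in both genotypes, and the difference between the genes of a pair was not tested. These pairs were not set in advance and are written with the larger change first. Sorted by size, 11 genes rose over 8-fold in NTC livers (Clspn, Exo1, Fanci, Eme1, Rad51ap1, Chek1, Bard1, Fanca, Rad54l, Rad51c and Fancd2, from 10.8-fold to 33.4-fold). A further 11 rose 2.07-fold to 4.91-fold, and Blm, Fancg, Mre11a and Brca2 rose 1.69-fold to 1.98-fold. No gene lay between 4.91-fold and 10.8-fold in NTC livers. That gap was not seen in sgBap1 livers, where Fanca rose 7.64-fold and the genes over 8-fold rose 8.03-fold to 12.1-fold. The 11 with the largest folds came from all 7 roles and were nearly silent without injury, at 0.0831 to 0.490 CPM and 3 to 18 reads in the NTC-Veh livers, and they stood at 1.80 to 7.10 CPM in NTC-CCl4 livers.

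Levels of different genes were compared per kilobase of annotated exon, since a longer transcript gives more reads. In NTC-Veh livers the mean level ran from 0.0147 CPM per kb for Exo1 to 6.71 CPM per kb for Nbn, a 457-fold range, and 11 genes were below 0.1 CPM per kb. In NTC-CCl4 livers it ran from 0.350 CPM per kb for Exo1 to 6.65 CPM per kb for Nbn, a 19.0-fold range, and 0 genes were below 0.1 CPM per kb. The range narrowed likewise in sgBap1 livers, from 332-fold to 20.8-fold. The genes lowest without injury moved up towards the others, and Exo1 and Nbn stayed at the ends of the order. To compare starting level with response without using any liver in both, the level in sgBap1-Veh livers was set against the response in NTC livers: over the 39 genes Pearson's r was -0.90 on log2 levels and Spearman's rho was -0.89, given as a description, since genes are not independent replicates and share libraries, depth and processing.

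**Figure D4:**
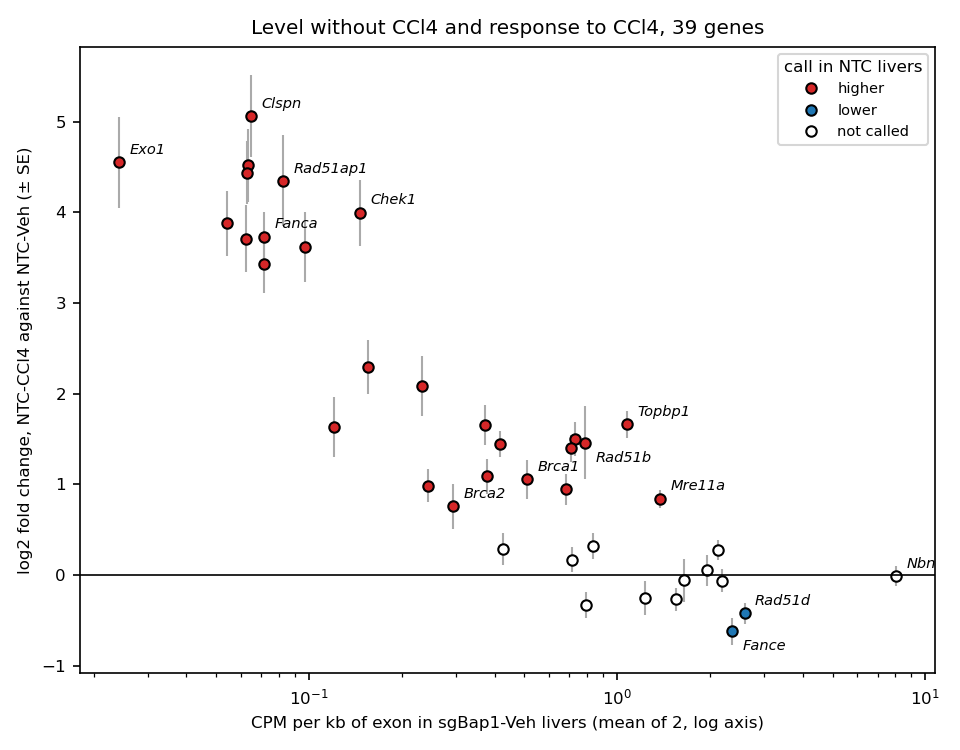
Mean level in the 2 sgBap1-Veh livers (horizontal log axis, CPM per kb of exon) against the log2 fold change of NTC-CCl4 over NTC-Veh (vertical axis, with SE) for the 39 genes, with red for higher, blue for lower and white for not called. The 10 genes below 0.1 CPM per kb, Exo1 and Clspn among them, rose by 3.43 to 5.06, Chek1 just above that level rose by 3.99, Nbn at the right end lies at 0, and Rad51d and Fance lie below it.

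Genes of the cell cycle moved with these genes. All 32 genes of an S-phase and mitosis list were higher with CCl4 in both genotypes, with median log2 fold changes of 3.70 and 3.17. The 4 with the smallest p in NTC livers were Mcm5 (4.36, SE 0.21) and Mcm2 (3.37, SE 0.19), which encode subunits of the replicative helicase, and the mitotic kinase genes Aurka (4.93, SE 0.27) and Plk1 (5.34, SE 0.30). Within the NTC-CCl4 group, the summed level of the 32 genes was 1087 CPM in replicate 1, 740 CPM in replicate 2 and 957 CPM in replicate 3, and the summed level of the 39 repair genes was 349, 277 and 322 CPM in the same livers. Replicate 2 was the lowest of the 3 on both sums and replicate 1 the highest. In sgBap1-CCl4 replicates 1, 2 and 3 the 32 genes summed to 852, 1025 and 912 CPM. The 39 genes summed to 288, 290 and 305 CPM there. Replicate 1 was the lowest on both sums, but the highest was replicate 2 on the first and replicate 3 on the second. In vehicle livers the 2 sums were 109 to 112 and 185 to 186 CPM in NTC, and 130 to 150 and 176 to 181 CPM in sgBap1 livers.

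Other cells moved as well. The 8 macrophage and monocyte markers summed to 164 to 224 CPM in NTC-Veh, 326 to 438 CPM in sgBap1-Veh, 716 to 909 CPM in NTC-CCl4 and 717 to 945 CPM in sgBap1-CCl4 livers, and the 7 hepatocyte markers summed to 129870 to 161083, 113878 to 120965, 73275 to 83988 and 66837 to 85853 CPM in that order. In NTC livers 7 of 8 macrophage and monocyte markers were higher with CCl4 and 6 of 7 hepatocyte markers lower. In sgBap1 livers 6 of 8 macrophage and monocyte markers were higher and 1 lower, and 3 of 7 hepatocyte markers were lower. The 9 T, NK and B cell markers summed to 4.74 to 9.47 CPM in NTC-Veh, 13.1 to 14.7 CPM in sgBap1-Veh, 11.2 to 16.9 CPM in NTC-CCl4 and 10.4 to 13 CPM in sgBap1-CCl4 livers, with 4 of 9 higher with CCl4 in NTC and 0 in sgBap1 livers. Of the 6 stellate, 5 endothelial and 5 bile duct markers, 4, 3 and 2 were higher with CCl4 in NTC livers and 3, 3 and 2 in sgBap1 livers. In sgBap1 livers 1 endothelial marker was lower. None of these markers was at 0 in a whole group. The part of the cell cycle and of infiltrating cells in the repair gene changes was not tested, and in bulk tissue fewer cells of a type and less RNA per cell cannot be told apart.

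Genes of the pathway beyond the 39 moved in both directions. Of 55 other homologous recombination, Fanconi and checkpoint genes, 54 were tested, and 22 were higher and 7 lower in NTC livers, with a median log2 fold change of 0.19, where 27.4% of all genes tested were higher and 26.6% lower. In sgBap1 livers 23 were higher and 10 lower, against 29.0% and 28.0%. The smallest p belonged to Fignl1 (5.07, SE 0.39), which encodes an AAA ATPase, Parpbp (5.12, SE 0.43), the ubiquitin ligase gene Rad18 (2.38, SE 0.20) and Rmi2 (5.03, SE 0.50), which encodes a partner of the BLM helicase. Rad9b, Slx1b, Rmi1, Swi5, Zswim7, Recql5 and Wrn were the 7 that fell in NTC livers.

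Sequence around the start sites was examined because so many of the 39 genes rose together. RefSeq promoters of 300 bases (250 before to 50 after a start, GRCm38.p6) were matched for 31 of the 39 genes. The letters TTTCCCGC, TTTGGCGC, TTTCGCGC or TTTGCCGC, typical of sites for E2F, the factor family that switches on S-phase genes, occurred on either strand in 7 of the 31 (22.6%) against 2.60% of 27025 genes in the same table. All 7 were among the 21 matched genes that rose in NTC livers, and none was among the other 10. The CHR letters TTTGAA or TTCGAA, typical of genes of late cell cycle, were in 4 of 31 (12.9%) against 21.7% of genes, and CCAAT was in 20 of 31 (64.5%) against 41.1%. Each stretch that held the E2F letters is shown 5′ to 3′ on the strand of its gene, 30 bases long with the E2F letters or their complement in capitals, since these are the matches on which the count rests:
Topbp1 (chr9:103305187-103305216, plus strand, 129 bases before the start): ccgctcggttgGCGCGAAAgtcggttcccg
Bard1 (chr1:71103163-71103192, minus strand, 209 bases before the start): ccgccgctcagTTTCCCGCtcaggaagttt
Brca2 (chr5:150522442-150522471, plus strand, 168 bases before the start): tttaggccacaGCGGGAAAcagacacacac
Chek2 (chr5:110839820-110839849, plus strand, 152 bases before the start): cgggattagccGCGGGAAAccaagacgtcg
Fancg (chr4:43010335-43010364, minus strand, 52 bases before the start): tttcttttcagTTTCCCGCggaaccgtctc
Clspn (chr4:126556990-126557019, plus strand, 21 bases after the start): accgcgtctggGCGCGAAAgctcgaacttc
Rad51c (chr11:87404477-87404506, minus strand, 11 bases after a start): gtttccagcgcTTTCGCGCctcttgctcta
Rad51c (chr11:87404941-87404970, minus strand, 5 bases before another start): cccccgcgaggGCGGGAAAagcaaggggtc

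These genes ranged widely in response, from Clspn at 5.06 to Brca2 at 0.76 on the log2 scale in NTC livers, and Fanca, Fanci, Eme1 and Chek1, with larger changes than most, held none of these letters in the window. Only exact matches to the listed letters were counted. Near matches were left out, among them some in the windows of Chek1 and Fanci, which rose. The windows of Atm and Fancm, which did not pass in NTC livers, hold near matches too, so the split above holds for exact matches only. A match is a description of the letters and not of binding. The start sites are those of RefSeq, and GENCODE starts can lie elsewhere.

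The comparison of sgBap1-Veh with NTC-Veh asked whether editing Bap1 in hepatocytes changed the genes without injury. edgeR called 0 of the 39, where 0.406% of all genes passed, and 2 of the 39 had an unadjusted p under 0.05, as 12.3% of all genes did. DESeq2 and limma-voom also called 0, with 4 and 0 genes under the unadjusted value, although DESeq2 called 3.30% of all genes and limma-voom 0.147%. The differences had a median of 0.04, with 22 of 39 positive. That median was -0.13 with 17 positive without sgBap1-Veh replicate 1, 0.11 with 20 positive without NTC-Veh replicate 1, and -0.01 with 17 positive when the vehicle groups were fitted alone. The median SE was 0.23, so modest differences could have been missed for many of the genes.

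The 4 with the smallest p, none of which passed, were Blm, Clspn, Nbn and Chek1. Blm, the RecQ helicase gene that dissolves double Holliday junctions, read 3.16 and 3.02 CPM in NTC-Veh and 2.07 and 2.21 CPM in sgBap1-Veh livers, a log2 difference of -0.53 (SE 0.21, adjusted p = 0.343). Clspn and Chek1, with the values above, differed by 1.57 (SE 0.66, adjusted p = 0.368) and 1.02 (SE 0.49, adjusted p = 0.447), and Nbn by 0.26 (SE 0.12, adjusted p = 0.43). In each of these 4 genes the livers of one group lay on one side of those of the other. Over the 39 genes this was so for 10 upward and 10 downward, against 21.7% and 19.2% of all genes.

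Some of the low members varied widely within a group. Rad51ap1 held 13 and 3 reads in the NTC-Veh livers and 24 and 4 in the sgBap1-Veh livers, and Exo1 held 4 and 5 against 11 and 3. In these genes the livers of 1 group differed more from each other than the groups did. Bard1 and Rad54l overlapped between the groups as well. For Clspn, Chek1, Rad51c, Fanca, Fancd2, Fanci and Eme1 each sgBap1-Veh liver lay above each NTC-Veh liver in CPM, on few reads, and none of these differences passed. In sgBap1-Veh replicate 1 Clspn, Rad51ap1, Exo1, Fanci and Rad51c were all higher in CPM than in its partner, whereas Fancd2 and Eme1 were lower. Of the S-phase and mitosis list edgeR called 0 of 32, with 7 under an unadjusted p of 0.05 and 28 of 32 positive, where 53.4% of all genes were positive. Its member with the smallest p was Mcm5 (1.14, SE 0.22, adjusted p = 0.06). Of the macrophage and monocyte markers 2 of 8 were higher in sgBap1-Veh livers, and of the T, NK and B cell markers 0 of 9 passed, with 6 under an unadjusted p of 0.05 and all 9 positive.

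**Figure D5:**
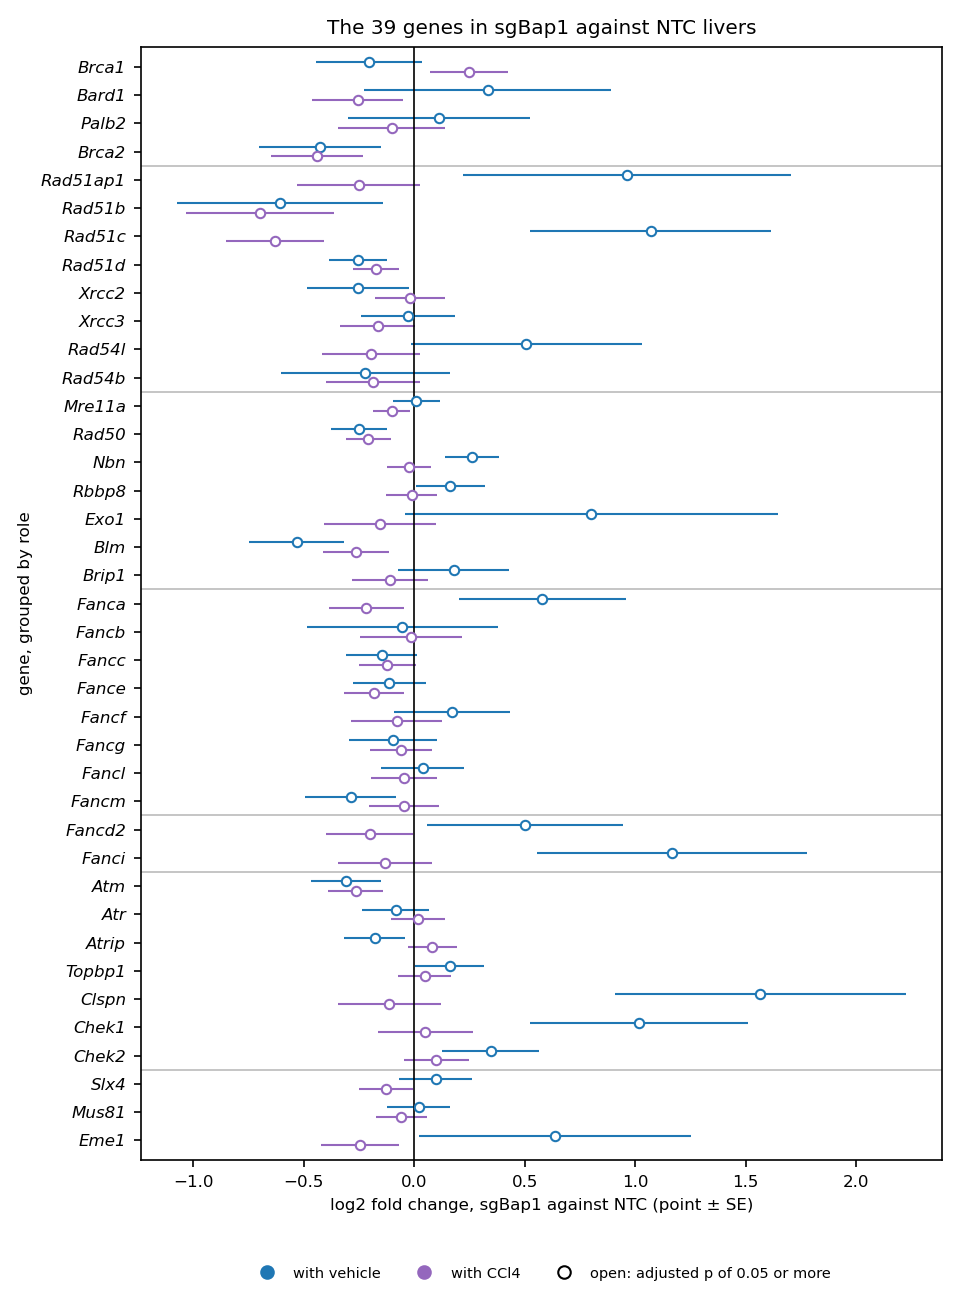
Log2 fold change of sgBap1 against NTC livers (horizontal axis, point with SE) for the 39 genes (vertical axis, grouped by role), with vehicle (blue) and with CCl4 (purple). All points are open because none passed an adjusted p of 0.05. With vehicle the low-count genes Clspn, Fanci, Rad51c and Rad51ap1 lie to the right with wide SE, and with CCl4 most points lie slightly left of 0.

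With CCl4, where the counts were larger, the genotypes differed little. edgeR called 0 of the 39 genes between sgBap1-CCl4 and NTC-CCl4 livers, where 0.329% of all genes passed, with 1 gene under an unadjusted p of 0.05 (14.0% of all genes), and DESeq2 and limma-voom also called 0, with 2 and 3 under it, although DESeq2 called 2.99% of all genes and limma-voom 0.317%. The median difference was -0.12, the median SE 0.17, and 37 of 39 differences were within 0.5 on the log2 scale. Of the 39 differences 33 were negative and 6 positive, where 50.4% of all genes were positive. The size of that lean depended on single livers. Without NTC-CCl4 replicate 1, the liver of its group with the highest sums, 16 of 39 were positive and the median was -0.02, and without NTC-CCl4 replicate 2, the one with the lowest, 3 were positive and the median was -0.22. With any 1 of the other livers left out, 4 to 11 were positive and the median was -0.15 to -0.08.

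Rad51c had the smallest p and was lower in all 3 sgBap1-CCl4 livers (1.53, 1.73 and 1.70 CPM) than in all 3 NTC-CCl4 livers (3.20, 1.80 and 2.71 CPM), although the nearest values almost met. The log2 difference was -0.63 (SE 0.22), which did not pass (adjusted p = 0.247), and the livers of the genotypes were apart for 0 of the 39 genes upward and 3 downward, against 10.1% and 10.2% of all genes. Atm read 13.9, 12.5 and 13.7 CPM in NTC-CCl4 and 12.4, 10.4 and 10.5 CPM in sgBap1-CCl4 livers (-0.27, SE 0.13, adjusted p = 0.38). Brca2 read 12, 7.06 and 8.30 CPM against 6.79, 5.60 and 7.84 CPM (-0.44, SE 0.21, adjusted p = 0.38), with overlapping groups. Rad50 overlapped too, at 18, 14.3 and 17.3 CPM against 14.5, 14.4 and 13.9 CPM (-0.21, SE 0.10, adjusted p = 0.384). Rad51b differed by -0.70 (SE 0.33, adjusted p = 0.386), and by -0.38 (SE 0.22, adjusted p = 0.595) without the library with fat cell RNA, which held its lowest value.

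The last comparison asked whether the response to CCl4 differed between genotypes. The NTC and sgBap1 responses come from different livers, and over the 39 genes they had a Pearson's r of 0.975 and a Spearman's rho of 0.981, as a description across genes. The 26 genes higher in NTC livers were higher in sgBap1 livers, Rad51d and Fance were lower in both, Rad50, Nbn and Fancm passed in sgBap1 livers alone, and Xrcc3, Fancc, Fancf, Fancl, Atm, Atr, Atrip and Mus81 passed in neither. The interaction of genotype and CCl4 called 0 of the 39 genes with edgeR, as it did over all genes (0.00%), and DESeq2 and limma-voom also called 0 of the 39. Over all genes DESeq2 called 2.49% and limma-voom 0.00%. At an unadjusted p under 0.05 edgeR had 2 genes, DESeq2 3 and limma-voom 1, where edgeR had 10.4% of all genes.

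The interaction was negative for 26 of the 39 genes, with a median of -0.11, where 47.6% of all genes had a positive interaction. The S-phase and mitosis list leaned further the same way, with 28 of 32 negative and a median of -0.44, and 0 passed. All 8 macrophage and monocyte markers and all 9 T, NK and B cell markers were negative too, whereas 6 of 7 hepatocyte markers were positive, and 0 of these passed. The signs of the 39 genes depended on single livers: without sgBap1-Veh replicate 1, 20 of 39 were positive and the median was 0.02. Without NTC-CCl4 replicate 2 the median was -0.17 with 8 positive, without sgBap1-CCl4 replicate 3 it was -0.18 with 9 positive, and with any 1 of the other livers left out it was -0.15 to -0.08 with 8 to 15 positive. The 4 smallest p, none passing, were those of Rad51c (-1.70, SE 0.59, adjusted p = 0.334), Clspn (-1.68, SE 0.70, adjusted p = 0.442), Fanci (-1.30, SE 0.65, adjusted p = 0.541) and Fanca (-0.80, SE 0.41, adjusted p = 0.561). Their mean vehicle levels were higher and their mean CCl4 levels lower in sgBap1 than in NTC livers, and none of these differences passed. The 8 genes that rose over 8-fold in sgBap1 livers (Exo1, Eme1, Clspn, Bard1, Fanci, Rad51ap1, Chek1 and Rad54l) all had a larger log2 fold change in NTC livers, a difference that no single gene carried past the test.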

How the data were processed

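Bulk polyA RNA from the right lobe of 10 mouse livers was sequenced with a stranded kit. The authors aligned reads with STAR 2.7.6a to GRCm38 and deposited gene-level estimated counts from Salmon 1.4.0. Whether Salmon used strand is not given in the sources used here, and 27 of the 39 genes overlap another annotated gene, among them Eme1, Fanca, Fancd2 and Fanci on the opposite strand. Estimated counts (9.22% not whole) were rounded, filtered with filterByExpr, scaled by TMM and fitted in 1 model of the 4 groups with edgeR 4.0.16 (quasi-likelihood, robust, R 4.3.3), two-sided, with Benjamini-Hochberg adjustment over 17015 genes. CPM used the TMM library sizes, and SE was the log2 fold change over the root of F.

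The 39 genes, the lists and the roles were chosen with earlier results of these data known. Genes named in full were up to 8 per comparison with the smallest p among those passing 0.05 with a mean of 20 counts, or the 4 with the smallest p where fewer than 4 passed, then 2 to 4 examples per role, up to 4 from each other list, and Bap1. Genes whose call depended on a liver, genes without a call, and genes that fell were named after their values were seen. H2afx was matched as H2ax, and Dmc1 was filtered out. One gene of the wider pathway list is not reported here and was left out of its counts. The labels number the replicates and do not state how mice were assigned, so p-values measure the spread between these livers. Alternatives were limma 3.58.1 (voom), DESeq2 1.42.0, other scalings, filters, a replicate block, each liver left out, the compared groups alone and, chosen after seeing the data, the edgeR 3 method. In the main fit the replicate numbers were not used to pair the livers. Gene positions and lengths came from GENCODE vM21 and promoters from RefSeq. The test was checked on simulated counts in which few genes changed, in equal parts up and down. Scaling under a change as broad as that with CCl4 was not checked.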

Additional observations from a re-analysis of the deposited data

How the results depend on the processing

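The counts of the 39 genes called stayed within 1.5 times the reported counts under all alternatives: 26 to 33 of 39 in NTC livers, 26 to 32 in sgBap1 livers, and 0 in both genotype comparisons and the interaction. Scaling by library size alone moved the median of all genes by 0.50 and 0.52 (log2), with 80.5% and 78.3% of called genes higher, and called 33 and 32 of the 39 higher and 0 lower. It reversed Rad51d to 0.053 in NTC and 0.14 in sgBap1 livers and Nbn to 0.18 in sgBap1 livers, from the scaling itself. Without sgBap1-CCl4 replicate 2, the library with fat cell RNA, the counts were 28, 28, 0, 0 and 0.

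The Bap1 difference kept its direction throughout. With vehicle it no longer passed when scaled by library size alone (-0.91, adjusted p = 0.051), and with each liver left out it ran from -0.99 to -0.84, with the call lost without any 1 of the 4 vehicle livers (adjusted p of 0.0577 to 0.120). With CCl4 it no longer passed when scaled by library size alone (-0.63, adjusted p = 0.0636) or fitted in the compared groups alone (-0.65, adjusted p = 0.0766), and with each liver left out it ran from -0.75 to -0.57, with the call lost in 6 of 10 (adjusted p of 0.0545 to 0.147). The cause was not tested.

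Same-numbered livers showed little correlation in their deviations from the group means (-0.149 to 0.102 over 13 pairs). In a group of 2 livers the deviations mirror each other, so the 13 pairs are not independent. Whether livers with the same number shared a batch cannot be told from these values. A fit with a replicate block called 28, 28, 0, 0 and 0 of the 39 genes, without Fancm (adjusted p = 0.0538), Rad50 (0.0693) and Nbn (0.0815) in sgBap1 livers, and gave Bap1 -0.91 (adjusted p = 0.0745) with vehicle and -0.66 (adjusted p = 0.0552) with CCl4.

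In vehicle livers depth limits genes with fewer than 20 reads, for which fold sizes are imprecise.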
